A study of Mus musculus with 32 samples.

Results

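The genes described here are 10 factors that mark or specify the deep layers of the cerebral cortex: Tbr1, Bcl11b, Bcl11a, Fezf2, Tle4, Foxp2, Foxp1, Zfpm2, Ldb2 and Rprm. They were taken by gene symbol from the 32285 genes of single-cell RNA-seq libraries of mouse dorsal telencephalon, from which the cortex develops, and all 10 passed the filter on low counts. The study compared C57BL/6J embryos with both copies of Chd8 intact (WT) with Chd8+/- embryos (called Chd8 het here) at embryonic day (E) 12.5, at E14.5, at E16.0 and last at E17.5. Chd8 encodes a chromatin remodelling protein. Each of the 8 groups of stage and genotype had 4 libraries, each from an embryo processed on its own. WT and het embryos were matched by litter and sex into 16 pairs. Replicates are named M1 and M2 (males) and F1 and F2 (females), and medial tissue, which forms the hippocampus, had been cut away.

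Projection neurons of the cortex are born from radial glia, directly or through intermediate progenitors, and the deep layers form before the upper layers. Fezf2 and its target Bcl11b (Ctip2) direct neurons that project below the cortex towards brainstem and spinal cord, whereas the T-box factor Tbr1 directs corticothalamic neurons and represses Fezf2 and Bcl11b there. The proteins of many of these genes act together as repressors, and early neurons hold several of them before their identities separate.

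After a filter on cells and removal of doublets, 138226 cells were retained, and 84880 of them (61.4%) held at least 1 UMI of Neurod6, a factor of postmitotic excitatory neurons. A UMI marks a captured RNA molecule. These Neurod6-detected cells were 20.4% to 41.4% of a library at E12.5, 67.1% to 77.6% at E14.5, 65.8% to 78.1% at E16.0 and 69.9% to 83.9% at E17.5. The libraries held 14710694 to 66499864 UMIs each. The median of UMIs per Neurod6-detected cell was 3725 to 10186 in the E12.5 libraries and 3968 to 5553 in those of E17.5. Pairs of libraries shared at most 1.301% of the barcodes of the smaller library. Chd8 was lower in the het library in 15 of the 16 pairs (39.1 to 82.9 CPM in WT, 19.4 to 70.8 CPM in het). Levels are in CPM, the UMIs of a gene scaled to the same total of UMIs in the summed cells of each library. In such sums, fewer cells of a type and less RNA per cell cannot be told apart. No code in the labels' sample descriptions was shared between stages, so stage and code cannot be told apart. At E14.5 and E16.0 the codes also divided males from females. At E17.5 the M1 and F1 pairs carried a code of another form, which starts with the letter p, and they stood apart from the M2 and F2 pairs, so the members' last steps, and those of 4 pairs of members, are also given without them. Other values of E17.5 are over all 8 libraries.

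Upstream sequence is shown for members that fell between E14.5 and E16.0 in both genotypes, Tbr1, Fezf2 and Rprm. Bcl11b also fell, and its window, which held no match to the motifs searched, is not printed. Sequences are from RefSeq on GRCm38.p6, on the strand of the gene, and end upstream of the RefSeq start site or of the annotated UTR. For Tbr1 and Fezf2 the window lies inside the GENCODE gene interval given below, which begins upstream of the RefSeq start. The capitals mark a GC box (GGGCGG, or CCGCCC where it lies on the other strand) or the homeodomain core TAATTA. Tbr1 is shown at chr2:61804203-61804452 (plus strand, 45.2% GC), Rprm at chr2:54085553-54085802 (minus strand, 62.4% GC) and Fezf2 at chr14:12345960-12346115 (minus strand, 60.3% GC), which is 156 of its 250 upstream bases. The Fezf2 stretch ends 95 bases before the start. The GC box of its window, 85 bases before the start, lies in the part not printed.
Tbr1: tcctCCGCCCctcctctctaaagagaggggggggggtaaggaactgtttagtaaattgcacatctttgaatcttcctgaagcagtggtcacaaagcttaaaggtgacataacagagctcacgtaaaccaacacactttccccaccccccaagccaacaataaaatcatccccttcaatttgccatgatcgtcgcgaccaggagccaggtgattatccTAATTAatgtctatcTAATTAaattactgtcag
Rprm: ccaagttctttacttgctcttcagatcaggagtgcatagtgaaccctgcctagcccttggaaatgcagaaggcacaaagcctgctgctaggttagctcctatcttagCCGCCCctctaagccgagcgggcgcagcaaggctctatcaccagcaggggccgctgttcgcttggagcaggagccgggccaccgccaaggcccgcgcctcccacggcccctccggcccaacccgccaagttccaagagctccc
Fezf2: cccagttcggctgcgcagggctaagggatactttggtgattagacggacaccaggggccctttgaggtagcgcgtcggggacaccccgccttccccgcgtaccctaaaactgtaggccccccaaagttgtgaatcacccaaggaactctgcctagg
The Tbr1 stretch held TAATTA at 33 and 18 bases before the start (counted to the first letter of the match), a motif found in 4.84% of the 32851 promoter windows of the table. A GC box was found in 8 of the 10 windows of the members (7 members had entries) and in 32.7% of all windows. The T-box word AGGTGTGA (1.12% of all windows), the E-box words CAGATG and CAGCTG (14.4% and 13%) and TATAAA (12.4%) were found in no member's window, on either strand, and CCAAT (33.8%) in those of Bcl11a, Foxp1 and Tle4. Such a match is a description of letters and not a binding site.

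Within Neurod6-detected cells, the deep-layer factors moved in different directions over the 1st step, from E12.5 to E14.5. Tbr1 fell while Bcl11b, Foxp2 and Ldb2 rose, in both genotypes. In WT 3 of the 10 members rose and 1 fell at an adjusted p under 0.05 (edgeR's quasi-likelihood test, Benjamini-Hochberg adjustment over 14568 genes), and 37.3% of all genes changed in either direction. In het 6 rose and 1 fell, against 43.9% of all genes, so that 4 of 10 members were called in WT and 7 of 10 in het. Without the E17.5 M1 and F1 libraries, which share the estimate of the spread, 6 of 10 were called in WT and 8 of 10 in het, against 43.8% and 49.4% of all genes. The median log2 change of the members was 0.33 in WT and 0.52 in het, and that of all genes was 0.02 and 0.01.

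Tbr1 (chr2:61802930-61814114, plus strand, GRCm38 here and below) was highest at the earliest stage. In the order M1, M2, F1, F2, the WT libraries held 344, 326, 351 and 369 CPM at E12.5 and 247, 228, 272 and 217 CPM at E14.5, and the het libraries 373, 354, 452 and 369 CPM and then 259, 209, 246 and 216 CPM. All libraries of E12.5 lay above all of E14.5. The log2 change was -0.54 (SE 0.16, edgeR adjusted p = 0.00949) in WT and -0.88 (SE 0.17, adjusted p = 8.54e-05) in het. At E16.0 Tbr1 stood at 166 ± 24.8 CPM (mean ± SD, n = 4) in WT and 161 ± 14.1 CPM in het, a further log2 change of -0.69 (adjusted p = 0.00846) and -0.65 (adjusted p = 0.0138). At E17.5 it stood at 119 ± 31.3 and 118 ± 28.7 CPM, and the last step did not pass the test (-0.39 with adjusted p = 0.168 and -0.44 with adjusted p = 0.0694). It depended on single libraries: without E17.5 WT M2 it was -0.59 (adjusted p = 0.0330) in WT and -0.44 (adjusted p = 0.0439) in het, and without E17.5 het M2 it was -0.66 (adjusted p = 0.00402) in het.

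In the sum of all retained cells the same step of Tbr1 had the opposite sign. There Tbr1 rose by 0.71 on the log2 scale in WT (edgeR adjusted p = 0.00113) and 0.44 in het (adjusted p = 0.0327), beside the rise in the share of Neurod6-detected cells given above. The het call was lost without the E12.5 libraries het M1 (0.34, adjusted p = 0.129) or F2 (0.31, adjusted p = 0.147) or the E14.5 library het M1 (0.36, adjusted p = 0.108). Tbr1 was thus lower relative to all UMIs within the neurons and higher in the tissue. In all retained cells 5 members rose and none fell in WT (53.2% of 15884 genes changed), and 7 rose in het (57.8%).

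Bcl11b (chr12:107910403-108003602, minus strand), a zinc-finger factor of subcerebral neurons, peaked at E14.5. Its WT libraries held 240, 139, 198 and 190 CPM at E12.5, 444, 437, 382 and 344 CPM at E14.5, 303, 302, 244 and 190 CPM at E16.0 and 111, 58.8, 91.7 and 81.2 CPM at E17.5. The het libraries held 191, 151, 199 and 191 CPM, then 483, 396, 419 and 376 CPM, then 277, 230, 256 and 289 CPM, and last 181, 60.4, 138 and 69.0 CPM. In both genotypes the libraries of E14.5 lay above those of every other stage, and those of E17.5 lay below those of E16.0. Bcl11b rose by 1.05 (adjusted p = 0.00036) in WT and 1.05 (adjusted p = 0.00032) in het, and then changed by -0.77 (adjusted p = 0.0233) and -0.79 (adjusted p = 0.0225), and by -1.52 (adjusted p = 5.3e-05) and -1.27 (adjusted p = 0.000389), on the log2 scale of edgeR. The call from E14.5 to E16.0 was lost in WT without any one of E14.5 WT M1 or M2 or E16.0 WT F1 or F2 (adjusted p from 0.0516 to 0.0849), and in het without E14.5 het M1 or E16.0 het M1 or M2 (adjusted p from 0.0557 to 0.0648).

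Fezf2 (chr14:12342094-12348189, minus strand), the zinc-finger factor that acts upstream of Bcl11b, had its largest fall in the last step. In WT it stood at 204 ± 17 CPM (SD, n = 4) at E12.5, 287 ± 75.8 at E14.5, 192 ± 45.9 at E16.0 and 52.6 ± 15 at E17.5. In het these levels were 161 ± 20.2, 300.5 ± 71.6, 204 ± 14 and 53.0 ± 21.8 CPM. The 1st step passed in het (0.75, edgeR adjusted p = 0.00534) and not in WT (0.46, adjusted p = 0.0877). In WT it passed without the E17.5 M1 and F1 libraries (0.47, adjusted p = 0.0291) and without E14.5 WT F1 (0.58, adjusted p = 0.0374), and the test of a difference in steps between genotypes in all retained cells gave no call for any member (adjusted p = 0.9997 for each, 0.0% of all genes called). The 2nd step was -0.72 (adjusted p = 0.0303) in WT and -0.67 (adjusted p = 0.0465) in het. The WT call was lost without any one of E14.5 WT M1 or M2 or E16.0 WT F1 or F2 (adjusted p from 0.0737 to 0.105), and the het call was lost without any one of 17 libraries (those of E12.5 other than het M2 and F1, E14.5 WT F2 and het M1, M2 and F2, E16.0 WT M1 and F1 and all het, and E17.5 WT F2, adjusted p from 0.05001 to 0.137). The last step was -1.78 (adjusted p = 5.7e-06) and -1.98 (adjusted p = 1.69e-06), and all 8 libraries of E17.5 lay under all 8 of E16.0.

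Ldb2 (chr5:44472132-44799680, minus strand), a LIM-domain binding cofactor of subcerebral neurons, had the largest change of the members. Its WT libraries held 3.19, 4.66, 5.15 and 3.51 CPM at E12.5 and 42.5, 48.2, 36.6 and 40.4 CPM at E14.5. The het libraries held 1.21, 3.49, 1.22 and 1.69 CPM and then 54.3, 37.1, 30.9 and 40.3 CPM. The E12.5 values rested on few UMIs of Ldb2, 39 to 78 in a WT library and 5 to 85 in a het library. The ranges were far apart, and the log2 rise was 3.32 (SE 0.35, edgeR adjusted p = 1.75e-08) in WT and 4.04 (SE 0.40, adjusted p = 4.56e-09) in het. From E14.5 to E16.0 its log2 change was -0.09 in WT and 0.01 in het, neither past the test. Ldb2 overlaps Gm3364 on its own strand and Gm43507 on the other, and the sources used here do not say whether counting used strand.

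Among the corticothalamic markers, the mean of Foxp2 was highest at E16.0 in both genotypes, and Rprm was highest at E12.5 and E14.5. Tle4 (chr19:14448150-14598051, minus strand), a co-repressor of the Groucho family, stood at 28.8 ± 2.03, 29.9 ± 4.89, 59.7 ± 14.3 and 39.5 ± 34.1 CPM (SD, n = 4) over the stages in WT and at 26.6 ± 4.21, 33.3 ± 8.96, 52.2 ± 10.5 and 63.3 ± 53.8 CPM in het. Its steps did not pass the test over all 32 libraries (E16.0 against E14.5: 0.84, edgeR adjusted p = 0.198 in WT and 0.53, adjusted p = 0.451 in het). Without the E17.5 M1 and F1 libraries, which share the estimate of the spread, those values were 0.84 (adjusted p = 0.00117) and 0.52 (adjusted p = 0.0308).

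Foxp2 (chr6:14901349-15441977, plus strand), a forkhead factor of corticothalamic neurons, rose from 14.7 ± 4.93 CPM (SD, n = 4) at E12.5 to 31.6 ± 6.38 CPM at E14.5 in WT, a log2 change of 1.08 (edgeR adjusted p = 0.000218), and from 12 ± 3.69 to 28.8 ± 3.19 CPM in het (1.12, adjusted p = 0.000209). It stood at 41.2 ± 3.30 and 36.3 ± 4.66 CPM at E16.0 and at 24.2 ± 7.13 and 27.3 ± 10.9 CPM at E17.5. The last step passed in WT (-0.69, adjusted p = 0.0483), close to the threshold, and was lost without any one of 22 of the 32 libraries, those of other stages included since they share the estimate of the spread (the E12.5 libraries F1 of both genotypes, those of E14.5 other than WT F1, all of E16.0, and E17.5 WT M2, F1 and F2 and het M1 and F1, adjusted p from 0.0502 to 0.147). In het it was -0.43 (adjusted p = 0.161).

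Rprm (chr2:54084093-54085552, minus strand), which encodes the cell cycle regulator Reprimo and marks corticothalamic neurons, held 487, 434, 414 and 341 CPM in the WT libraries of E12.5 and 485, 452, 274 and 362 CPM in those of E14.5. It then stood at 223, 293, 193 and 201 CPM at E16.0 and at 157, 70.5, 195 and 69.0 CPM at E17.5. The levels of E12.5 and E14.5 overlapped and so did those of E16.0 and E17.5. Rprm changed by -0.93 (edgeR adjusted p = 0.0262) in WT and -1.08 (adjusted p = 0.0122) in het from E14.5 to E16.0, and by -0.96 (adjusted p = 0.0173) in het in the last step, where the WT value was -0.80 (adjusted p = 0.0761). The WT call from E14.5 to E16.0 was lost without any one of E14.5 WT M1, M2 or F2 or E16.0 WT M1, F1 or F2 (adjusted p from 0.0505 to 0.0820). The het call of the last step was lost without the E16.0 library het F2 (-0.89, adjusted p = 0.0571), and without the E17.5 library WT F1 the WT step passed (-1.14, adjusted p = 0.0137).

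Zfpm2 (chr15:40655035-41104592, plus strand), the zinc-finger cofactor Fog2, had low counts throughout. Its mean was 12.9 ± 2.04 CPM (SD, n = 4) at E12.5 and 3.72 ± 2.52 CPM at E17.5 in WT, and 10.7 ± 2.46 and 7.25 ± 4.91 CPM in het. The last step was -1.30 (edgeR adjusted p = 0.0356) in WT and -0.33 (adjusted p = 0.552) in het, and the WT call was lost without any one of the E16.0 libraries WT M1, M2 or F2 or the E17.5 libraries WT M2, F1 or F2 (adjusted p from 0.0508 to 0.147).

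Bcl11a (chr11:24078056-24174123, plus strand, overlapped on the other strand by Gm12064 and 4930538E20Rik) and Foxp1 (chr6:98925338-99522721, minus strand, overlapped by Gm20705) are transcription factors found in deep and upper layers. Bcl11a stood at 419 ± 59.1, 490.0 ± 52.9, 491 ± 25.9 and 564 ± 79.8 CPM (SD, n = 4) over the stages in WT and at 353 ± 20.02, 476 ± 40.7, 500.05 ± 16.2 and 568 ± 79.2 CPM in het. In Neurod6-detected cells it changed in 1 step only, by 0.29 in het from E12.5 to E14.5 (edgeR adjusted p = 0.0287), and that call was lost without the E12.5 library het M2 (0.22, adjusted p = 0.106). In all retained cells it was the 1 member that rose in the last step (0.42, adjusted p = 0.00761 in WT; 0.30, adjusted p = 0.0406 in het), and both calls were lost without the E17.5 M1 and F1 libraries (0.33, adjusted p = 0.0766 and 0.19, adjusted p = 0.317). The het call was also lost without any one of 8 libraries (E12.5 WT F1, E16.0 het M1, M2 and F2, and E17.5 WT F2 and het M1, F1 and F2, adjusted p from 0.0501 to 0.209). Foxp1 rose by 0.84 (adjusted p = 0.00239) in het and was at 0.46 (adjusted p = 0.0858) in WT in the 1st step, which passed in WT too without the E17.5 M1 and F1 libraries (0.47, adjusted p = 0.00449).

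**Figure D1:**
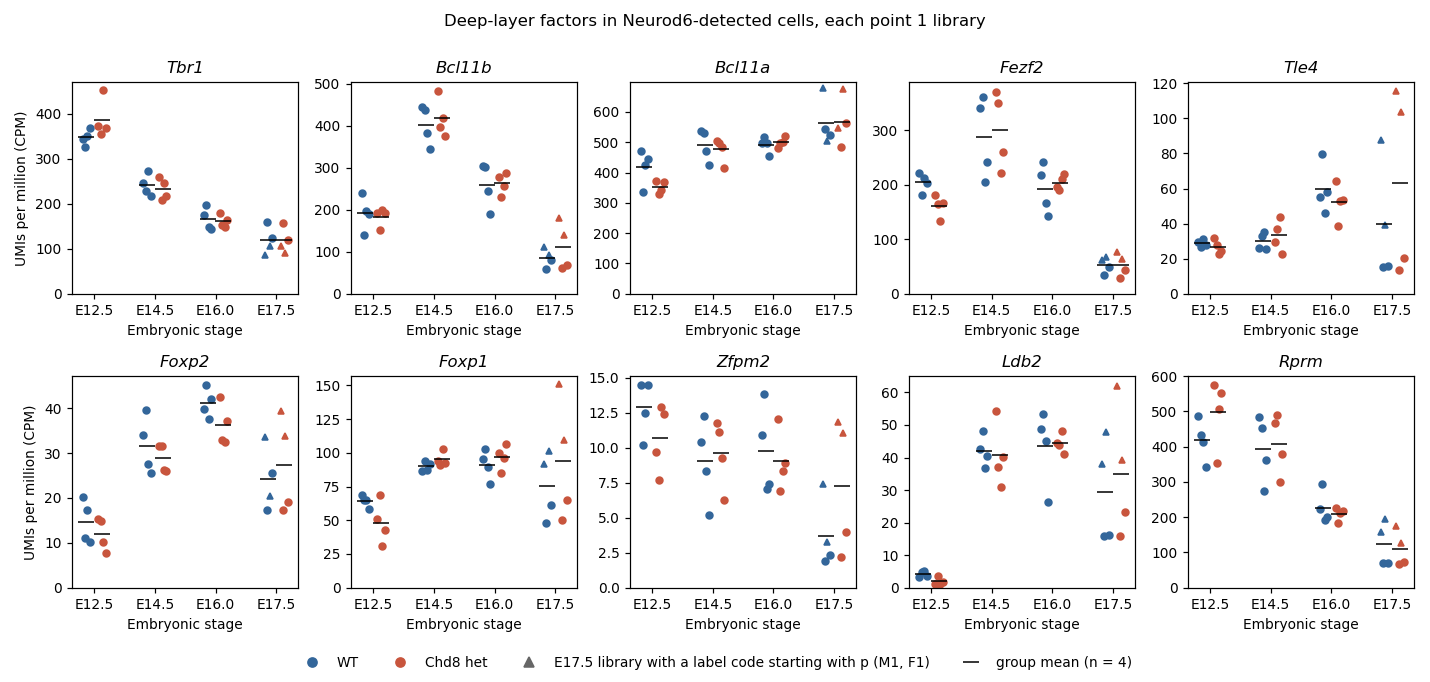
CPM of each member in Neurod6-detected cells (y axis, a panel per gene with its own scale) by stage (x axis), with a point per library and a line through the mean of 4 libraries for each genotype. Bcl11b and Fezf2 are highest at E14.5 and Ldb2 is near 0 at E12.5. WT and het libraries overlap for each gene and stage except Fezf2 at E12.5, where all 4 WT libraries lie above all 4 het libraries.

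From E14.5 to E16.0 the same 4 members fell in both genotypes, Tbr1, Bcl11b, Fezf2 and Rprm, and none rose, while 10.9% of all genes changed in WT and 8.27% in het. The genes that fell were 5.0% of all genes in WT and 3.46% in het. The count depended on single libraries: in WT it was 1 without any one of E14.5 WT M1, E14.5 WT M2, E16.0 WT F1 or E16.0 WT F2, and in het 2 without E14.5 het M1, E16.0 het M1 or E16.0 het M2. From E16.0 to E17.5 Bcl11b and Fezf2 fell in both genotypes, with Foxp2 and Zfpm2 in WT (4 of 10, against 2.97% of all genes lower and 5.64% in either direction) and Rprm in het (3 of 10, against 8.44% lower and 14.9% in either direction). In WT the count was 2 without E16.0 WT M1, M2 or F2 or E17.5 WT F2.

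In all retained cells 4 members fell from E14.5 to E16.0 in each genotype (Tbr1, Bcl11b, Fezf2 and Rprm), against 6.32% of genes that fell and 11.8% in either direction in WT, and 4.59% and 9.63% in het, and the WT count was 2 without E14.5 WT M1. From E16.0 to E17.5 3 fell and 1 rose in each genotype, against 17.4% and 27.3%.

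The E17.5 libraries held 2 sets of levels. In Neurod6-detected cells Tle4 was at 87.8 and 39.2 CPM in the WT libraries M1 and F1 and at 116 and 104 CPM in the het libraries M1 and F1, but at 15.3 and 15.7 CPM in WT M2 and F2 and at 13.6 and 20.4 CPM in het M2 and F2. The ratio of the means was 5.32. Bcl11b (91.7 to 181 against 58.8 to 81.2 CPM), Fezf2 (61.2 to 77.0 against 27.8 to 48.4), Foxp1 (91.5 to 151 against 47.9 to 64.7), Ldb2 (38.1 to 61.9 against 15.8 to 23.2) and Rprm (128 to 195 against 67.7 to 72.5) were also higher in all 4 M1 and F1 libraries. Tbr1 alone among the members was lower in all 4 (86.4 to 106 against 118 to 160 CPM). Such separation held for 6 of 10 members in the higher direction and 1 in the lower, and for 14.9% and 15.3% of all genes.

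Several marker lists moved with this division. The summed level of 10 stress and immediate early genes in Neurod6-detected cells was 631 to 981 CPM in the M1 and F1 libraries and 294 to 357 CPM in the others, with 8 of 10 genes separated. The sum of 6 interneuron markers was 13.4 to 24 CPM against 33.0 to 65.1 CPM (5 of 6 lower, none at 0). Of 6 microglial markers 4 were lower in M1 and F1, and of 4 intermediate progenitor markers 2 were. Among 20 other deep-layer and subplate genes 14 were higher and 4 lower, and among 11 upper-layer genes 3 were higher and 1 lower. The part of these genes in the result was not tested.

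Without these 4 libraries, a comparison chosen after seeing the data, 8 of the 10 members fell from E16.0 to E17.5 in both genotypes (Bcl11b, Fezf2, Tle4, Foxp2, Foxp1, Zfpm2, Ldb2 and Rprm), against 2.55% of all genes lower in WT and 3.23% in het. Bcl11b then changed by -1.80 (edgeR adjusted p = 3.2e-06) in WT and -1.94 (adjusted p = 1.32e-06) in het, Fezf2 by -2.13 (adjusted p = 4.51e-06) and -2.45 (adjusted p = 1.32e-06), and Rprm by -1.60 (adjusted p = 6.9e-05) and -1.50 (adjusted p = 0.000145). Tle4 changed by -1.84 (edgeR adjusted p = 1.27e-05) in WT and -1.54 (adjusted p = 0.0001) in het, and Ldb2 by -1.34 (adjusted p = 0.00169) and -1.12 (adjusted p = 0.00662). Foxp2 was at -0.85 (adjusted p = 0.0217) and -0.92 (adjusted p = 0.0130), Foxp1 at -0.65 (adjusted p = 0.0176) and -0.68 (adjusted p = 0.0118), and Zfpm2 at -2.12 (adjusted p = 0.000669) and -1.48 (adjusted p = 0.0104). Tbr1 was at -0.12 (adjusted p = 0.697) and -0.13 (adjusted p = 0.636), and Bcl11a at 0.22 (adjusted p = 0.293) and 0.14 (adjusted p = 0.490). This fit leaves 2 libraries per genotype at E17.5, M2 and F2, each with its own code. Of these 8 members, 6 were higher in all 4 libraries left out, and Tbr1 was lower in all 4. Leaving them out thus lowers the E17.5 means of those 6 by itself, so their larger falls are no separate result. The p-values do not allow for this choice.

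A division also ran through E14.5, where males and females carried different codes, so that sex and code cannot be told apart. Fezf2 was at 341 to 371 CPM in the 4 male libraries (356 ± 13.2, SD) and at 205 to 260 CPM in the 4 female libraries (232 ± 24), a ratio of 1.53. Bcl11a, Foxp2, Zfpm2 and Rprm (452 to 489 against 274 to 381 CPM) were also higher in all males, 5 of 10 members, and 19.9% of all genes were. No member was lower in all males (6.92% of genes). At E16.0 no member was separated (8.15% of genes higher in males). The fall of Fezf2 from E14.5 to E16.0 was from 356 to 211 CPM in males and from 232 to 185 CPM in females.

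The other layer genes show what the members' falls stood beside. Of 11 upper-layer genes, 9, 8 and 6 rose over the 3 steps in Neurod6-detected cells of WT and also of het, 1 fell in the 1st step and none in the others. Pou3f2, a POU factor of upper-layer neurons, went from 85.0 to 301 CPM from E14.5 to E16.0 in WT (log2 1.68, edgeR adjusted p = 4.01e-07). Of 19 other deep-layer and subplate genes tested (of 20), 10 rose and 3 fell in the 1st step in each genotype, 1 rose and 2 fell in the 2nd, and in the last 1 rose and 4 fell in WT and 2 rose and 3 fell in het. Their medians in WT were 1.00, -0.16 and -0.32, and those of the upper-layer genes 1.56, 0.84 and 0.57, beside 0.02, 0.02 and 0.01 for all genes.

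Single genes of the deep-layer list differed widely, here over all libraries. Grik3, a kainate receptor subunit, rose by 6.05 (edgeR adjusted p = 6.61e-09) to 12.7 CPM in WT in the 1st step and changed by -1.75 (adjusted p = 0.00667) in the last. Cdh13, a cadherin, went from 90.3 to 26.1 CPM in the last step (-1.71, adjusted p = 0.00348), and Cntn6, a contactin, from 0.265 to 2.34 CPM (3.21, adjusted p = 0.00295). Sox5, a repressor that times the birth of deep-layer neurons, went from 263 to 124 CPM in het (-1.13, adjusted p = 0.00459). The fall was not particular to het: in all retained cells Sox5 went from 191 to 88.5 CPM in WT (-1.04, edgeR adjusted p = 0.0127). The lists were chosen with earlier results of these data known. The striatal markers, 7 genes, summed to 4.1 to 11.2 CPM in Neurod6-detected cells.

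No member differed between Chd8 het and WT at an adjusted p under 0.05 by edgeR, at any stage or averaged over stages, in either set of cells, and none did by DESeq2 where it gave an adjusted p. In Neurod6-detected cells the share of all genes that passed was 0.233% for the average over stages, 0.00686% at E12.5 and 0.0% at each later stage. In all retained cells it was 0.327% for the average, 0.302% at E12.5 and 0.0% at each later stage. DESeq2 leaves some genes without an adjusted p, so its shares have other denominators. At E12.5 it called 8.2% of the 4683 genes that kept one in Neurod6-detected cells and 5.22% of 13111 in all retained cells. In Neurod6-detected cells 7 of the 10 members kept an adjusted p there, and none was called. At the later stages it called 0.0137%, 0.0137% and 0.00686% of 14567 genes in Neurod6-detected cells and 0.0126%, 0.0126% and 0.0063% of 15883 in all retained cells. For the average it called 0.457% of 14002 and 0.737% of 15883. By the unadjusted p of edgeR, 1 of 10 members was under 0.05 in each set of cells, Zfpm2 at E17.5, and none at the other stages or in the average. In all retained cells 729 of 15884 genes were under 0.05 at E17.5. In Neurod6-detected cells Zfpm2 was at 7.40, 1.91, 3.26 and 2.32 CPM in the WT libraries M1, M2, F1 and F2 and at 11.9, 2.16, 11 and 3.96 CPM in the het libraries, higher in het in 4 of 4 pairs, with overlapping groups. Its log2 difference was 0.86 (95% interval 0.08 to 1.64, adjusted p = 0.921), and 0.52 without the M1 and F1 libraries (adjusted p = 1.0).

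The intervals bound what the averages over stages could hold. In Neurod6-detected cells the log2 difference of het minus WT was 0.02 for Tbr1 (95% interval -0.14 to 0.19), 0.10 for Bcl11b (-0.12 to 0.32), -0.06 for Bcl11a (-0.16 to 0.05) and -0.04 for Fezf2 (-0.26 to 0.18). For Foxp1 it was 0.01 (-0.20 to 0.23), for Foxp2 -0.10 (-0.32 to 0.12) and for Rprm 0.01 (-0.26 to 0.29). The widest intervals were those of Tle4 (0.13, -0.32 to 0.58), Zfpm2 (0.16, -0.21 to 0.53) and Ldb2 (-0.17, -0.52 to 0.18), and the adjusted p by edgeR was 1.0 for each. In counts of 15884 genes simulated from the sums of all retained cells, 78% of changes of 1.5-fold were recovered in the average over stages and 35% to 38% at a single stage.

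In Neurod6-detected cells at E12.5 some members had the same sign in all pairs without passing the test. The share of all genes with the same sign in all pairs is not given here. Depth also differed: the median of UMIs per cell was 8133, 9369, 9416 and 8637 in WT (M1, M2, F1, F2). In het it was 5595, 10186, 3725 and 5753, and the part of depth was not tested. Ldb2 was lower in het in 4 of 4 pairs, with a log2 difference of -0.78 (95% interval -1.67 to 0.11, edgeR adjusted p = 0.464). It rested on few UMIs, 47, 65, 78 and 39 in the WT libraries M1, M2, F1 and F2 and 7, 85, 5 and 12 in the het libraries. Tbr1 was higher in het in 4 of 4 pairs (0.27, adjusted p = 0.519), and Bcl11a (-0.14, adjusted p = 0.635) and Fezf2 (-0.24, adjusted p = 0.699) were lower in het in 4 of 4. The groups of Fezf2 did not overlap, with 222, 181.6, 211 and 203 CPM in the WT libraries M1, M2, F1 and F2 and 181.03, 165, 133 and 166 CPM in the het libraries. Fezf2 was the 1 member of 10 separated in this way at E12.5, as were 4.38% of all genes (het lower), and no member was separated at the later stages in Neurod6-detected cells. In all retained cells Fezf2 was again lower in 4 of 4 pairs and separated (130.2 to 154.7 CPM in het, 155.2 to 186 CPM in WT), but Tbr1 was higher in het in 2 of 4 and Ldb2 and Bcl11a in 1 of 4 each. At E14.5 Foxp1 was higher in all het libraries there (86.6 to 93.8 CPM) than in all WT libraries (77.9 to 85.9 CPM). The share of all genes so separated is not given for all retained cells. With the litter pair as a block, the lowest adjusted p of any member at E12.5 was 0.102 in Neurod6-detected cells and 0.154 in all retained cells.

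**Figure D2:**
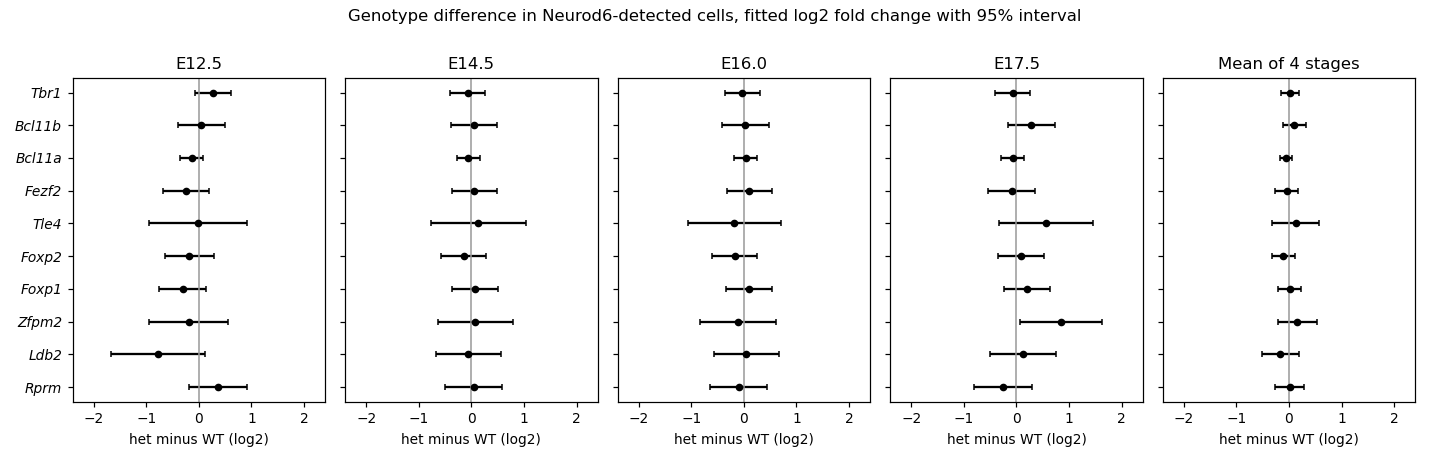
Log2 difference of Chd8 het minus WT (x axis) for each member in Neurod6-detected cells, by stage and averaged over stages, with 95% intervals of the edgeR fit. The intervals include 0 except that of Zfpm2 at E17.5, whose adjusted p is 0.921.

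Detection per cell separated the neurons from other classes for some members and not for others. Cells were gated by markers: Neurod6-detected cells, cells without Neurod6 that held radial glial or intermediate progenitor markers, and cells with interneuron or endothelial markers. The interneuron and endothelial classes could also hold Neurod6, so they can overlap with the Neurod6-detected cells. Tbr1 was found in 68.9%, 65.2%, 48.2% and 37.4% of Neurod6-detected cells over the 4 stages and in 6.03%, 6.61%, 4.76% and 6.14% of radial glial cells. Their median depths were 7915 to 4695 UMIs and 8394 to 6076 UMIs, so Tbr1 was found less often in the deeper cells. In interneuron-marked cells, which come from the ventral telencephalon, Tbr1 was found in 3.27% to 9.09%.

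Fezf2 and Rprm were also found in a large share of progenitors, in counts that were not thinned. Fezf2, which radial glia of the cortex express, was found in 62.4%, 59.8%, 48.6% and 30.3% of radial glial cells and in 60.9%, 64.5%, 45% and 16.1% of Neurod6-detected cells, and in 14.9% to 1.77% of interneuron-marked cells. Rprm was found in 65.3%, 59.0%, 47.6% and 39.6% of radial glial cells and 77.1%, 70.7%, 45.6% and 24.2% of Neurod6-detected cells. Free RNA was not modelled. Bcl11b, which interneurons also express, was found in 42.2%, 76.8%, 59.6% and 54.2% of interneuron-marked cells, in 59.0%, 72.1%, 50.0% and 22.2% of Neurod6-detected cells and in 16.4% to 5.07% of radial glial cells. In endothelial-marked cells, where Foxp1 is known to act, Foxp1 was found in 77.5%, 72.6%, 73.9% and 62.8% and Ldb2 in 57.4%, 41.1%, 32.4% and 26.6%.

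**Figure D3:**
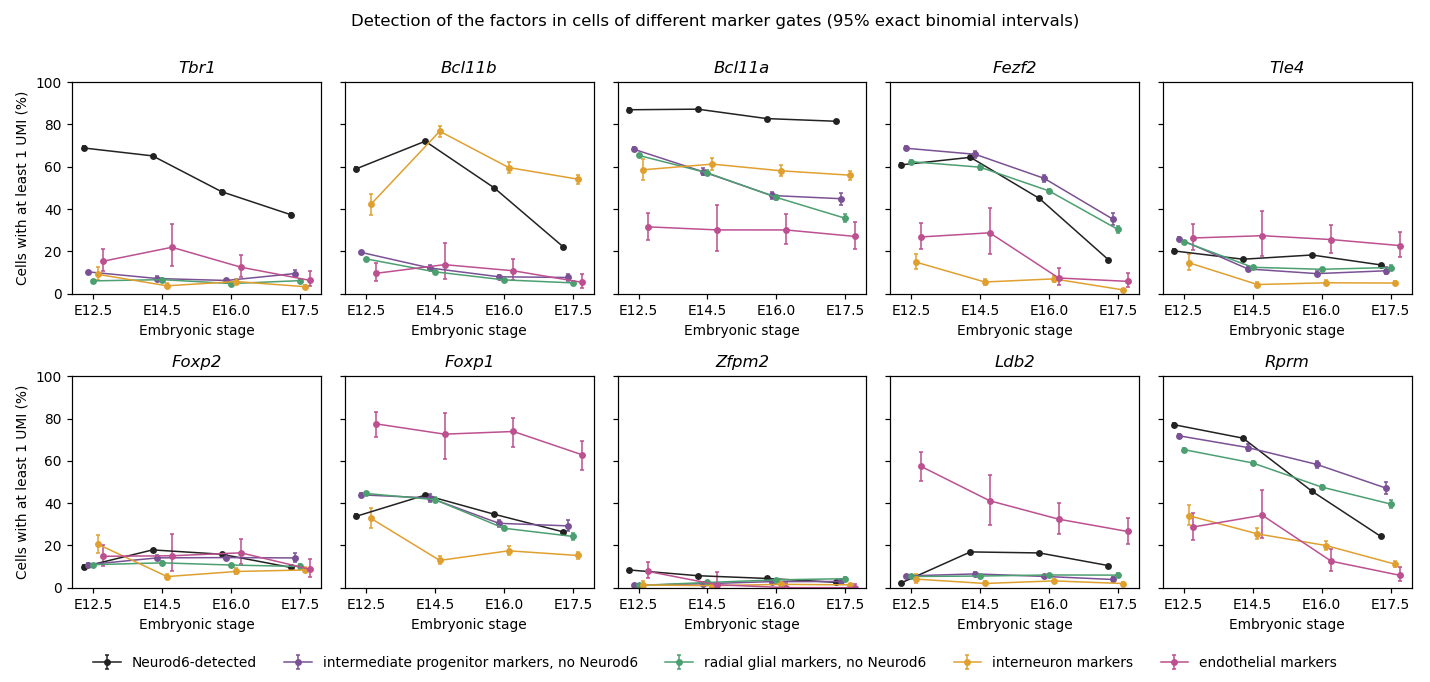
Percent of cells with at least 1 UMI of each member (y axis) by stage (x axis) in Neurod6-detected, radial glial, intermediate progenitor, interneuron and endothelial cells, with exact 95% binomial intervals that cover counting error only. Tbr1 is set apart in Neurod6-detected cells, whereas Fezf2 and Rprm are found in 30.3% or more of radial glial and intermediate progenitor cells at each stage.

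To compare cells of equal depth, each cell was thinned to 2000 UMIs, which left out 1988 shallower cells (1.44%). Neurod6 was then called again in the thinned counts. This kept 69.4% of the Neurod6-detected cells of E12.5 (59.5% to 80.5% by library), 88.2% of those of E14.5, 87.7% of E16.0 and 86.5% of E17.5, so steps from E12.5 rest on a smaller part of its cells. In thinned WT Neurod6-detected cells Tbr1 was found in 57.2%, 37.9%, 30.1% and 21.6% over the stages, Bcl11b in 36.1%, 50.5%, 35.2% and 12.3% and Fezf2 in 29.5%, 36.1%, 26.1% and 7.4%. Bcl11a was found in 61.9%, 61.2%, 62.1% and 61.96% in WT and in 55.1%, 59.96%, 62.96% and 62.9% in het. Averaged over stages, no member's share differed between het and WT past the test (0 of 10 at an adjusted p under 0.05 and 0 at an unadjusted p under 0.05, permutation test within stages, lowest adjusted p = 0.970). At each stage alone, a test chosen after seeing the values, 0 of 40 passed (exact permutation test, two-sided, lowest adjusted p = 0.762), and 1 reached the smallest unadjusted p that 4 against 4 allows, 0.0286. This was Fezf2 at E12.5, found in 28.0% to 32.05% of cells in the WT libraries and 19.8% to 26.6% in the het libraries (means 29.5% and 24.04%), so that the groups did not overlap.

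Pairs of members were then compared with what their separate shares would give. In each library the number of thinned Neurod6-detected cells with both genes was divided by the number expected if the genes were found independently, as log2 with 0.5 added to both. Values above 0 mean that the genes met in the same cells more often. The highest value the ratio can reach rises as the larger of the shares falls. The shares differed between stages, so values of different stages are not on a fully like scale. The 45 pairs share genes and cells and are not independent. With at least 5 expected cells in every library, 26 pairs could be measured at E12.5, 41 at E14.5, 42 at E16.0 and 28 at E17.5. The median over pairs, which were not the same pairs at each stage, was 0.01, 0.23, 0.37 and 0.46. From E16.0 to E17.5 that order turned on the odds ratio scale (0.78 to 0.72) and with cells thinned to 3000 UMIs (0.32 to 0.31). In the main setting all 8 libraries were above 0 in 5, 27, 34 and 12 pairs and below 0 in 1, 1, 0 and 4.

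Steps between stages were tested over libraries, by exact permutation within genotype and with adjustment over 95 steps. The 8 libraries of a stage are 4 litter pairs, which this test treats as independent, so its p-values may be too small. Over the means of the litter pairs, 4 against 4, the smallest p is 0.0286. There 45 of the 95 steps reached it, and none passed after adjustment (lowest adjusted p = 0.0603), against 56 over libraries. The adjusted p-values of the steps below are those over libraries, and a step said to pass did so over libraries only. Where the adjusted p of the exact permutation test is 0.00134, the step reached the smallest p that this test allows, 0.000408.

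Tbr1 and Bcl11b, which mark neuron types that later separate, met more often than expected at all stages. At E12.5 23.1% of cells held both against 19.8% expected (log2 0.22, lowest library 0.16, highest 0.31). At E14.5 the value was 0.24 (0.15 to 0.30), at E16.0 14.1% against 10.4% (0.44, 0.36 to 0.57) and at E17.5 3.91% against 2.78% (0.47, 0.11 to 0.76). The rise from E14.5 to E16.0 was 0.20 (exact permutation test over libraries, two-sided, adjusted p = 0.00134 over 95 steps). On the log2 odds ratio scale that rise gave an adjusted p of 0.075. The last step was 0.03 (adjusted p = 0.761), and 0.06 (adjusted p = 0.601) without the M1 and F1 libraries of E17.5.

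Tbr1 and Fezf2 were near independence at E12.5, with 15.2% of cells holding both against 15.2% expected (log2 0.01, lowest library -0.07, highest 0.09). They were at 0.19 (E14.5), 0.22 (E16.0) and 0.09 (E17.5). The 1st step of 0.18 passed the exact permutation test (adjusted p = 0.00134). At E17.5 the mean was 0.25 in M1 and F1 and -0.07 in M2 and F2. The last step was -0.13 (adjusted p = 0.233), and without M1 and F1 it was -0.29 (adjusted p = 0.0102). No pair with Tbr1 was below 0 in all libraries at E12.5.

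The mean co-detection of Bcl11b and Fezf2 was higher at each later stage in thinned cells. The values were 0.11 at E12.5 (10.1% against 9.46%), 0.27 at E14.5 (22.2% against 18.5%), 0.53 at E16.0 (13.7% against 9.50%) and 1.02 at E17.5 (2.39% against 1.01%). The steps were 0.16 and 0.26 (exact permutation test, adjusted p = 0.00134 each) and 0.49 (adjusted p = 0.0360). In cells that were not thinned the 1st step turned to -0.0157 (adjusted p = 0.763). At E17.5 the libraries ranged from 0.04 to 1.55, with a mean of 1.39 in M1 and F1 and 0.64 in M2 and F2. Without M1 and F1 the last step was 0.12 (adjusted p = 0.462), and the call was also lost without any one of 14 libraries, all 8 of E16.0 and M1, F1 and F2 of either genotype at E17.5 (adjusted p from 0.0543 to 0.0751), and on the odds ratio scale (adjusted p = 0.541).

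Tbr1 met the corticothalamic markers Tle4 and Zfpm2 more often at E14.5 and E16.0 than at E12.5, while over all pairs 13 of 26 and 22 of 41 of these steps rose. Tbr1 with Foxp2, another such marker, changed by -0.14 in the 1st step (exact permutation test, adjusted p = 0.237) and by 0.46 in the 2nd (adjusted p = 0.00134). Tbr1 with Rprm changed by 0.15 and 0.20 (adjusted p = 0.00134 each). Tbr1 with Tle4 went from -0.06 to 0.50 and 0.78 (2.63%, 3.29% and 5.66% of cells with both against 2.72%, 2.31% and 3.30% expected), and both steps passed the exact permutation test (0.56 and 0.28, adjusted p = 0.00134 each). The last step of this pair was -0.22 (adjusted p = 0.0763), with means of 0.75 in M1 and F1 and 0.37 in M2 and F2 at E17.5. That step passed when either of 2 single libraries was left out (adjusted p = 0.00757 and 0.0451). Tbr1 with Zfpm2 went from 0.24 to 0.81 and 1.05 (steps of 0.56, adjusted p = 0.00134, and 0.25, adjusted p = 0.0281). The smaller step was lost without any one of 7 libraries (E14.5 M1 and M2 of both genotypes, E16.0 WT F2 and het M2 and F1, adjusted p from 0.0524 to 0.0608), and without thinning the larger was 0.06 (adjusted p = 0.327). Tle4 with Foxp2 was the pair with the highest value at E16.0, 1.32 (2.32% against 0.931%, lowest library 1.17, highest 1.57), up from 0.24 at E14.5 by 1.08 (adjusted p = 0.00408), and at E12.5 it had too few expected cells to be measured. At E16.0 Zfpm2 with Rprm (1.28) and Bcl11b with Zfpm2 (1.09) came next.

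Foxp2 and Ldb2, a corticothalamic and a subcerebral marker, were the pair that met least often at E14.5. Cells with both were 0.299% against 0.473% expected, a log2 value of -0.67 with all 8 libraries below 0 (-1.21 to -0.07). At E16.0 the value was -0.06 (-0.48 to 0.33). Fezf2 with Ldb2, both of the subcerebral programme, was at 0.75 at E14.5 (4.43% against 2.63%, lowest library 0.66, highest 0.83). Means were above 0 in 38 of the 41 pairs measured at E14.5, those of Ldb2 with Tbr1, Tle4 and Rprm among them. The low value of Foxp2 with Ldb2 was therefore not shared by the other measured pairs of Ldb2 with corticothalamic markers. The forkhead factors Foxp2 and Foxp1 were near independence, at -0.08 at E14.5 (-0.38 to 0.40) and 0.07 at E16.0 (-0.15 to 0.31).

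At E17.5 Bcl11a met several other deep-layer factors less often than expected. Bcl11b with Bcl11a was at 0.08, 0.13 and 0.11 at the first 3 stages and at -0.19 at E17.5 (7.35% against 8.34%, lowest library -0.30, highest -0.12), a step of -0.30 (exact permutation test, adjusted p = 0.00134). The lowest values at E17.5 were those of Bcl11a with Rprm (-0.34), Foxp2 (-0.25) and Fezf2 (-0.23), and the highest those of Fezf2 with Rprm (1.24), Foxp2 with Rprm (1.13) and Bcl11b with Rprm (1.03). In M1 and F1 and in M2 and F2, Bcl11b with Bcl11a was at -0.18 and -0.20, and without M1 and F1 the step was -0.31 (adjusted p = 0.0102). Of the 95 steps, 13 of 26, 22 of 41 and 8 of 28 rose, and 0, 3 and 10 fell.

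Co-detection differed between Chd8 het and WT in 0 of the 42 pairs that could be measured at 1 stage or more (permutation test of genotype within stages with 100000 resamples, lowest adjusted p = 0.906), and 1 pair, Foxp1 with Zfpm2, which was measured at 1 stage, was under 0.05 unadjusted. Zfpm2 with Tle4, Foxp2 or Ldb2 had too few expected cells at every stage. With the pair as a block the lowest adjusted p was 0.866.

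**Figure D4:**
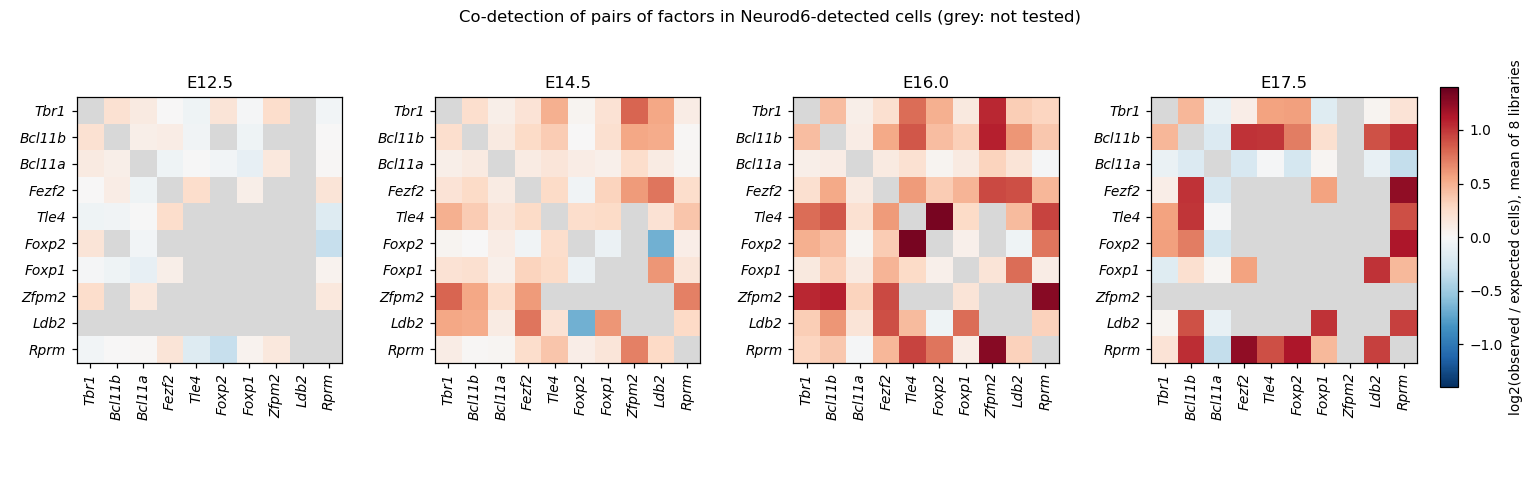
Mean log2 ratio of observed to expected cells with both genes (colour) for each pair of members at each stage, over 8 libraries of thinned Neurod6-detected cells, with pairs of under 5 expected cells in a library left blank. Values above 0 spread over most pairs by E16.0, and most pairs of Bcl11a lie below 0 at E17.5.

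**Figure D5:**
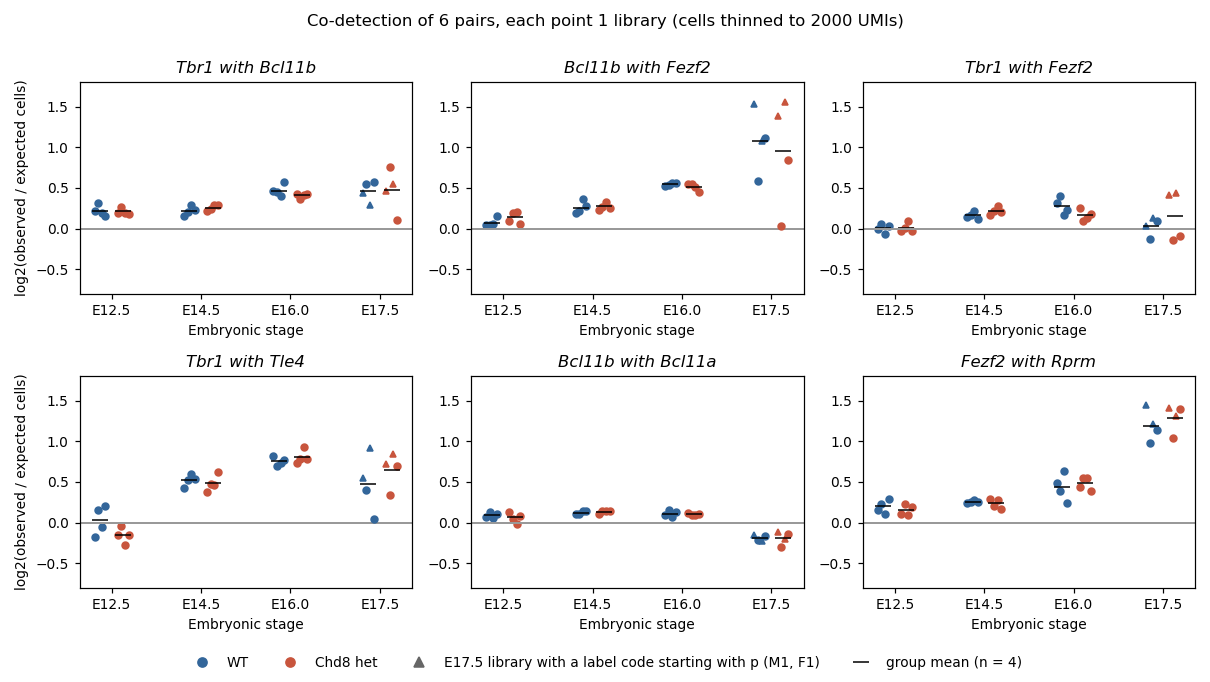
The same log2 ratio (y axis) by stage (x axis) for 6 pairs, with a point per library and genotype by colour. Bcl11b with Fezf2 stands at 1.02 at E17.5 with a wide spread, and Bcl11b with Bcl11a drops below 0 in all 8 libraries there.

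The genes whose levels ran most like those of the members were sought in all retained cells, over 32 libraries and 8626 genes, by Pearson's r of log2(CPM + 1). As a description, since these libraries share stages and codes, the closest gene was Vat1 for Tbr1 (0.86), Alcam for Bcl11b (0.96), Ankrd12 for Bcl11a (0.97), Klhl25 for Fezf2 (0.93), Taf7 for Tle4 (0.90), App for Foxp2 (0.94), Map1a for Foxp1 (0.82), Tshz3 for Zfpm2 (0.89), Bend6 for Ldb2 (0.99) and Nr4a2 for Rprm (0.90). Among the members Tbr1 ran at 0.72 with Bcl11b, 0.56 with Fezf2, 0.11 with Bcl11a and -0.35 with Tle4.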

How the data were processed

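Single-cell 3′ RNA was measured in 32 libraries of embryonic dorsal telencephalon, 10x Genomics v2 chemistry, per the labels' protocols. The authors deposited whole-number UMI counts per gene and barcode, not normalised. STAR 2.7.9a, Cell Ranger, STARsolo and mm10 are named in the submitters' processing notes, without their roles. Barcodes under 1000 UMIs, under 500 genes or over 10% mitochondrial UMIs were dropped, leaving 143697 of 145082, and 5471 doublets, scored against simulated pairs at an assumed 0.8% per 1000 cells, were removed. Counts were summed per library, over all retained cells and over cells with at least 1 Neurod6 UMI, and tested with edgeR 4.0.16 (TMM, filterByExpr, quasi-likelihood, 8 groups over 32 libraries) in R 4.3.3, with DESeq2 1.42.0 as an alternative, after tests on simulated data. Co-detection used cells thinned to 2000 UMIs, with permutation tests over libraries. Same-named WT and het embryos are litter pairs per the labels' protocols, and their deviations correlated at 0.07 to 0.65 in all retained cells (15 of 16 above 0.1) and at 0.035 to 0.712 in Neurod6-detected cells (13 of 16). The design without this block was the main one. Cells were gated on markers, with at least 2 markers detected for classes other than Neurod6. Free RNA was not modelled, and 99.6% of gene identifiers were found in GENCODE M21. The genes named were the 10 members, up to 4 genes per fixed list with the largest called change, the closest genes by correlation, and pairs at the extremes of co-detection. The members, lists and tests were chosen with earlier results of these data known. Other libraries and tables were not used here. The values of 1 gene of the upper-layer list are not reported here.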

Additional observations from a re-analysis of the deposited data

Results flagged for a closer look

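In 7 of 160 groups of 4 libraries, the level of a member in 1 library lay apart from the other 3 by most of the range of the group. Chance flags about 1 in 20 such groups, so this number is close to what chance gives. In all retained cells, Bcl11b was at 394.6 CPM in E14.5 het M1 (others 276.2 to 292.4), Bcl11a at 575.0 CPM in E17.5 WT M1 (428.1 to 451.2) and Fezf2 at 155.2 CPM in E12.5 WT M2 (182.7 to 185.6). Tle4 was at 33.6 CPM in E12.5 het M1 (29.2 to 29.8), Ldb2 at 6.08 CPM in E12.5 het M2 (5.06 to 5.22) and at 20.4 CPM in E16.0 WT F2 (36.7 to 39.5). In Neurod6-detected cells, Bcl11b was at 151.1 CPM in E12.5 het M2 (191.1 to 198.9).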

How the results depend on the processing

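Genotype calls of the members stayed at 0 under every alternative run (DESeq2, no filter on low counts, every deposited barcode, Neurod6 at 2 UMIs or more, doublets kept, the replicate block, without the E17.5 M1 and F1 libraries and without each library). The replicate block of litter pairs changed no member's call, and its lowest adjusted p was 0.102 in Neurod6-detected cells and 0.141 in all retained cells. No paired analysis was possible for stage steps because each pair lies within a stage. Counts over all genes moved more: at E12.5 in all retained cells 48 genes were called, and 684 by DESeq2, 2220 with the block, 9 without the filter, 76 with every barcode and 604 without the E17.5 M1 and F1 libraries (0 to 1488 without single libraries). In Neurod6-detected cells 1 gene was called there, and 384 by DESeq2, 827 with the block and 105 without those libraries. For the average over stages the counts were 52 (117 by DESeq2, 250 with the block, 18 without the filter) and 34 (64 and 123), and for the interaction in all retained cells 0 and 19. Without the E17.5 M1 and F1 libraries, left out after their levels were seen, 8 members fell from E16.0 to E17.5 in Neurod6-detected cells of each genotype. The genes that fell there were 2.55% of all genes in WT and 3.23% in het. The steps from E16.0 to E17.5 in het then turned for Foxp1 (all cells, -0.43, adjusted p = 0.0143) and Tle4 (all cells -1.28, adjusted p = 8.22e-05, and Neurod6-detected cells -1.54, adjusted p = 0.0001), and the cause was not tested.

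In unthinned cells 3 steps of co-detection from E12.5 to E14.5 turned: Tbr1 with Bcl11b to -0.0724 (adjusted p = 0.009058), Bcl11b with Bcl11a to -0.0119 and Bcl11b with Fezf2 to -0.0157. Thinned to 3000 UMIs, Bcl11b with Bcl11a was at -0.0003. The cause was not tested. Without single libraries the members called per step ranged, in all retained cells, from 5 to 6, 2 to 4 and 3 to 6 in WT and from 6 to 7, 3 to 4 and 3 to 4 in het. In Neurod6-detected cells they ranged from 4 to 5, 1 to 4 and 2 to 4 in WT and from 6 to 7, 2 to 4 and 2 to 4 in het. Of the co-detection steps, 51 to 60 were called, and 0 over the means of litter pairs, a unit chosen after seeing the data with a smallest p of 0.0286. Leaving out single libraries ended the call of a member 87 times and made one 30 times. In simulated counts of 15884 genes, 66% to 73% of 2-fold changes between genotypes were recovered at a single stage. Recovery may be lower in real contrasts with few or no calls.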
